A study of Mus musculus with 13 samples.

Results

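Simple and ductal epithelial keratins are the 7 genes Krt7, Krt8, Krt18, Krt19, Krt20, Krt23 and Krt80, taken by name from 24972 genes measured by polyA RNA sequencing of mouse tongue epithelia. All 7 were present and all 7 had an adjusted p. The 7 control samples carried the LSL-H3K36M allele without Cre, Krt14-Cre(-), and the 6 H3K36M samples carried it with Krt14-Cre, Krt14-Cre(+). The LSL cassette keeps the mutant histone silent until Cre removes it, and Krt14-Cre acts in basal cells of stratified epithelia and their descendants. H3K36M replaces lysine 36 of histone H3 with methionine and blocks methylation at that position. All H3K36M samples had Cre and no control did, so effects of Cre and of the histone cannot be told apart. The labels used here state no age and do not say whether each sample came from a separate animal, so p-values measure the spread between these samples.

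Keratins form the intermediate filaments of epithelial cells, always as a type I chain bound to a type II chain. Krt8 and Krt18 are the main pair of single-layered epithelia, Krt7 and Krt19 are found in ducts and glands, and Krt20 is known from intestinal surface cells, urothelium and Merkel cells. Stratified tongue epithelium builds its filaments from other chains, chiefly Krt5 with Krt14 in basal cells and Krt4 with Krt13 above them. Krt23 is a type I keratin that histone deacetylase inhibitors induce in human cancer cells. Krt80 is a type II keratin found in many epithelia. The study's title names gland formation, and the comparison asks whether keratins of glands and ducts differ in level when the mutant histone is present.

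The members lie at both keratin gene clusters. On chromosome 15, in GENCODE M21 coordinates on GRCm38, stand Krt80 (101347444 to 101370162, minus strand), Krt7 (101411043 to 101430313, plus strand), Krt8 (101996698 to 102004482, minus strand) and Krt18 (102028180 to 102032027, plus strand). Krt18 is the type I gene that sits beside the type II genes, next to its partner Krt8. Chromosome 11 holds Krt20 (99428403 to 99438150), Krt23 (99477974 to 99493137) and Krt19 (100140810 to 100148665), all on the minus strand.

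Promoter sequences are given for the adjacent pair Krt8 and Krt18 and for Krt7, which were all higher in H3K36M, and for Krt23, the most abundant member, which did not pass the test. Each is a window of 250 bases before to 50 after the start in RefSeq (GRCm38.p6), printed 5′ to 3′ on the gene's strand. Capitals mark matches on either strand to the GC box GGGCGG, to CACCC, a motif of Krüppel-like factors, or to the TATA box TATAAA. The windows are chr15:102004293-102004592 for Krt8, chr15:102027966-102028265 for Krt18, chr15:101412153-101412452 for Krt7 and chr11:99493071-99493370 for Krt23.
Krt8: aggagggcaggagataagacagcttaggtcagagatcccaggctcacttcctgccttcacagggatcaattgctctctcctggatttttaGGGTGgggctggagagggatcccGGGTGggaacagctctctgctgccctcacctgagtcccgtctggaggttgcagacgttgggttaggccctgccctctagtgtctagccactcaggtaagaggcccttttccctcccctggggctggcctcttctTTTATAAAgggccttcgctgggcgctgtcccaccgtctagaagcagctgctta
Krt18: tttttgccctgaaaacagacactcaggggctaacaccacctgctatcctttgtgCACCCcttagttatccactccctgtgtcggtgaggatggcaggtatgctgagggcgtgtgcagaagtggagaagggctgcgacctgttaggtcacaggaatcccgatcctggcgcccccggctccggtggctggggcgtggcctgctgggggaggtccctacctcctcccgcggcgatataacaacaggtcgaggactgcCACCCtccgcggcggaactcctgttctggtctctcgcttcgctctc
Krt7: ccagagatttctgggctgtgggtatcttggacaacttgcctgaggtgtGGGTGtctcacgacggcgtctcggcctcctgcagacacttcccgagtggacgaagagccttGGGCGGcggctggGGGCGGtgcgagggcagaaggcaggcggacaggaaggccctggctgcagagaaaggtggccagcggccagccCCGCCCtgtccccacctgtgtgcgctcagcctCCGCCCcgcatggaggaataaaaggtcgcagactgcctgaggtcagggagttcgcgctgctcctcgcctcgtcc
Krt23: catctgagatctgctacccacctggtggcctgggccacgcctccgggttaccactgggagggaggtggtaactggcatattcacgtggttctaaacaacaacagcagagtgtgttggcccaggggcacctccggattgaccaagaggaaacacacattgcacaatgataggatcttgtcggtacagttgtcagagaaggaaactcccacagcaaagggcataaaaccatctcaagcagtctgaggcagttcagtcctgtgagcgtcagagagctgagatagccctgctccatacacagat

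The windows had little in common. Of 27025 RefSeq promoters of 300 bases, 35.9% held GGGCGG, 56.7% CACCC and 14.2% TATAAA. Krt7 had 4 GC boxes and 1 CACCC match, Krt8 and Krt18 each had 2 CACCC matches and no GC box, and Krt23 had none of the 3 motifs. The TATAAA matches of Krt8 were 2, which overlap on opposite strands. GC content was 66.3% in the Krt7 window with 21 CpG sites, 61.3% with 17 in that of Krt18 and 58.0% with 6 in that of Krt8. It was 53.0% with 6 CpG sites at Krt23, against medians of 52.7% and 7 sites over all promoters. The AP-1 motif TGANTCA occurred in 7.93% of promoters and in none of these windows. Windows were found for 5 of the 7 members.

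The 4 classical simple and ductal keratins rose in H3K36M, and the other 3 members did not pass the test. Krt19, Krt8, Krt7 and Krt18 were higher by 4.64-fold to 11.1-fold at an adjusted p below 0.05 in the authors' deposited table. Of all 17449 genes with an adjusted p, 1.85% were higher and 1.59% lower by the same rule. The median log2 fold change was 2.22 over the 7 members and 0.07 over all tested genes. More cells that express these keratins and more RNA per cell cannot be told apart in bulk tissue. The deposited tables used here give a fitted level per group in normalised counts, so the spread between libraries is known only through the standard error (SE) of each fold change. Intervals of the levels below were computed from that same SE. Intervals that lie apart for a called member therefore add no evidence to its call.

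Krt19, a type I keratin of ducts and gland progenitors, had a fitted level of 40.7 normalised counts in control and 452 in H3K36M in the authors' deposited table. Its intervals were far apart, 28.2 to 58.7 in control and 310.3 to 659 in H3K36M, as computed from the deposited SE. The log2 fold change was 3.47 (SE 0.39, 95% interval 2.72 to 4.23) with adjusted p = 5.95e-16 by the authors' DESeq2 in the authors' deposited table. By p-value it stood at position 7 among all tested genes, although 97 of the 322 higher genes had a larger fold.

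Krt7, a type II keratin of ducts and glands, had 94.8 normalised counts in control and 621 in H3K36M by the authors' deposited table. Control spanned 60.5 to 148.6 and H3K36M 385 to 1003 as 95% intervals of the level, with no overlap. This was a 6.55-fold increase (95% interval 3.40 to 12.6, log2 fold change 2.71, SE 0.48, adjusted p = 3.56e-06) in the authors' deposited table.

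Both chains of the filament pair, Krt8 and Krt18, were higher in H3K36M. Krt8, the type II chain, had 17.8 normalised counts in control and 156 in H3K36M in the authors' deposited table. Its 95% intervals, computed from the SE, were 9.12 to 34.8 in control and 77.2 to 314 in H3K36M. Its log2 fold change was 3.13 (SE 0.71, 95% interval 1.73 to 4.53) with adjusted p = 0.000818 in the authors' deposited table. The Krt8 intervals of control and H3K36M did not overlap. Krt18, the type I chain, had 37.7 normalised counts in control and 175 in H3K36M in the authors' deposited table. Its 95% intervals, computed from the SE, were 20.2 to 70.3 in control and 90.3 to 339.8 in H3K36M. Its log2 fold change of 2.22 (SE 0.67, 95% interval 0.90 to 3.53) gave the weakest call of the 4, with adjusted p = 0.0312 in the authors' deposited table. The Krt18 intervals did not overlap either. Against a t distribution with 11 degrees of freedom in place of the normal, Krt8 and Krt18 lost their calls (adjusted p = 0.0750 and 0.232), and Krt7 and Krt19 were the 2 members called.

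Krt23, the most abundant member per length, had the only fold change below 0. Its level was 7308 normalised counts in control and 5556 in H3K36M in the authors' deposited table. The 95% intervals computed from the SE were 5762 to 9269 in control and 4298 to 7182 in H3K36M. The intervals overlapped, and the log2 fold change of −0.40 (SE 0.26, adjusted p = 0.769) did not pass in the authors' deposited table. A change of 1.75-fold in either direction would have been enough for a call at this SE.

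Krt80 had the widest spread for its level of any member. Its level was 4858 normalised counts in control and 5368 in H3K36M in the authors' deposited table. The 95% intervals computed from the SE were 2438 to 9682 in control and 2549 to 11306 in H3K36M. The log2 fold change was 0.14 (SE 0.75, adjusted p = 0.995), with a 95% interval that ran from 0.40-fold to 3.05-fold, in the authors' deposited table. At this SE only a change of at least 5.07-fold would have been called. The interval ended below the 4.64-fold estimate of Krt18, which has its own error. Changes within the interval could have been missed.

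Krt20 was close to the limit of detection. Its fitted level was 1.25 normalised counts in control and 1.996 in H3K36M in the authors' deposited table, which is about 8.73 and 11.97 normalised counts summed over the libraries of each group. The log2 fold change was 0.68 (SE 1.14, 95% interval −1.55 to 2.90, adjusted p = 0.990) in the authors' deposited table. A difference under 11.8-fold was not detectable at this depth.

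**Figure D1:**
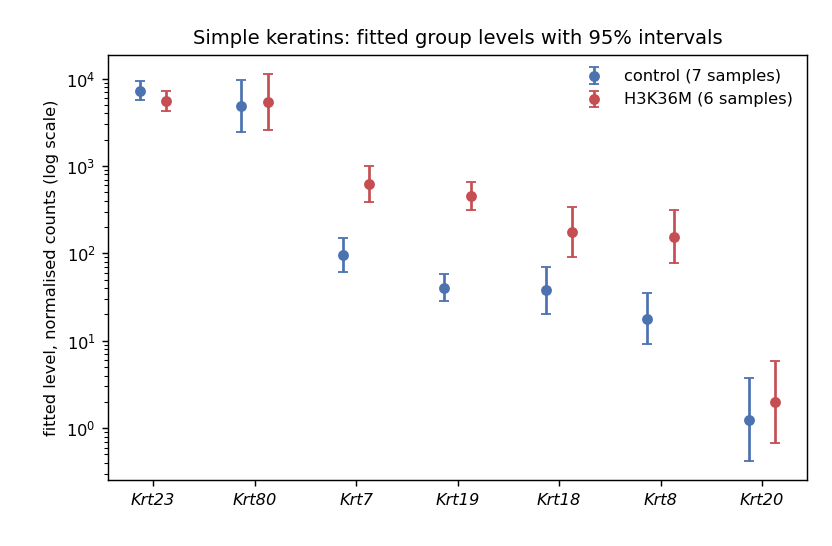
Fitted level of each simple keratin in normalised counts (log axis) in control (7 samples) and H3K36M (6 samples), with 95% intervals computed from the deposited SE. Krt7, Krt19, Krt18 and Krt8 have intervals that do not overlap between groups, and Krt23, Krt80 and Krt20 have intervals that do. The intervals rest on the same SE as the calls and are no separate evidence.

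The 4 increases could not be told apart from each other. Among all 21 pairs of members, the difference in log2 fold change was given an interval that holds for any correlation between genes of the same samples. Intervals were not adjusted for the number of pairs. The widest gap among the 4 was between Krt19 and Krt18, 1.26 on the log2 scale with an interval of −0.81 to 3.33. For the partners Krt8 and Krt18 the difference was 0.91 (−1.80 to 3.62), so neither equal nor unequal increases were shown.

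Of the 21 intervals, 7 lay above 0, and all 7 set Krt7, Krt8, Krt18 or Krt19 against Krt23 or Krt80. Krt19 exceeded Krt23 by 3.87 (2.61 to 5.13) and Krt80 by 3.33 (1.11 to 5.55) on the log2 scale. Krt8 exceeded Krt23 by 3.52 (1.62 to 5.43), Krt7 by 3.11 (1.66 to 4.56) and Krt18 by 2.61 (0.79 to 4.43). The bounds against Krt80 came close to 0 for Krt7 (0.16 to 4.98) and Krt8 (0.12 to 5.85), and the interval for Krt18 included 0 (−0.71 to 4.85). No interval with Krt20 lay apart from 0.

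Of the other epithelial keratins most were not called. By the authors' deposited table, 5 of 19 fell and 2 rose, against 1.59% lower and 1.85% higher over all tested genes. The median log2 fold change of these 19 keratins was −0.62. The authors' deposited table gave log2 fold changes of 4.44 (SE 0.64) for Krt1, a keratin of differentiating epidermis, and 1.39 (SE 0.24) for Krt79, known from hair follicle and sebaceous duct cells. On the log2 scale of the authors' deposited table, Krt76, known from the palate, dropped by 1.93 (SE 0.31), and Krt24, a type I keratin of keratinocytes, dropped by 1.37 (SE 0.26). Krt14 fell by 0.87 (SE 0.26), while its partner Krt5 stood at 0.04 (SE 0.48) in the authors' deposited table. Neither Krt4 (−0.07, SE 0.17) nor Krt13 (−0.30, SE 0.28) passed in the authors' deposited table. Over all 51 keratin genes tested, hard keratins included, 6 were higher, of which 4 were members, and 13 were lower, of which none was a member. The shares over all tested genes were 1.85% higher and 1.59% lower.

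**Figure D2:**
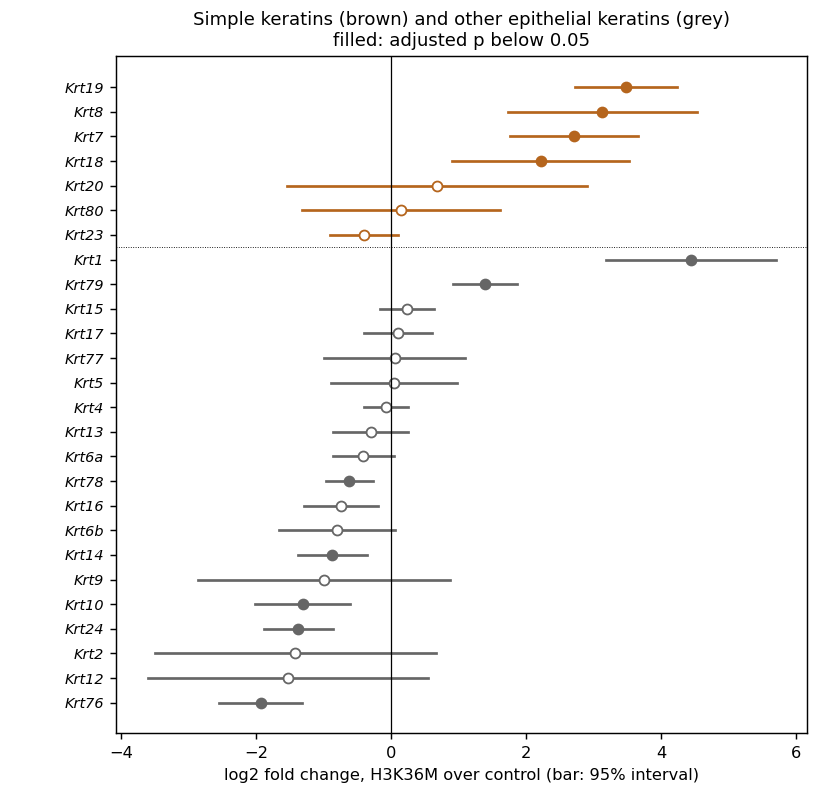
Log2 fold change of H3K36M over control for the 7 simple keratins (brown) and 19 other epithelial keratins (grey), with 95% intervals and filled points at an adjusted p below 0.05. Krt19, Krt8, Krt7 and Krt18 lie between 2.22 and 3.47, above the other epithelial keratins except Krt1, which stands at 4.44.

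Levels can be compared between genes only per length, here normalised counts per kb of exons in GENCODE M21. In control the order was Krt23 (4670 per kb), Krt80 (759.9), Krt18 (26.2), Krt19 (21.9), Krt7 (13.5), Krt8 (9.10) and Krt20 (0.65). In H3K36M it was Krt23 (3550.1), Krt80 (840), Krt19 (244), Krt18 (122), Krt7 (88.2), Krt8 (79.5) and Krt20 (1.04). Neighbours from Krt18 to Krt8 in control, and from Krt19 to Krt8 in H3K36M, did not differ beyond their intervals. Krt19 stood below Krt18 in control and above it in H3K36M, where the interval of their ratio was 0.71 to 5.65. The gap between Krt80 and the keratin below it was 29.0-fold (7.79 to 107.6) in control and 3.45-fold (1.12 to 10.6) in H3K36M, or 47.2-fold and 4.77-fold with the longest transcript as the length. With that length, Krt7 (151.8 per kb) stood above Krt18 in H3K36M, and the ratio of Krt23 to Krt80 there was 2.59 with an interval that included 1 (0.95 to 7.06).

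**Figure D3:**
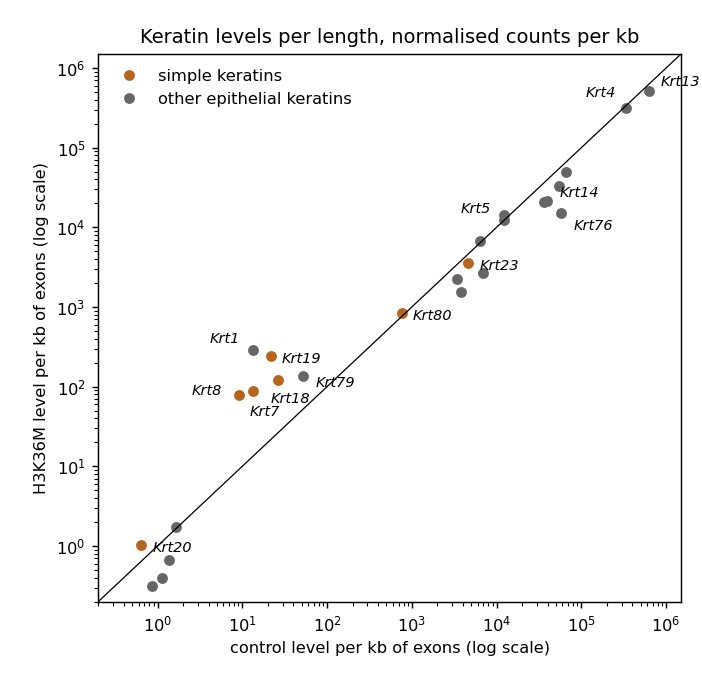
Level per kb of exons in H3K36M against control for simple and other epithelial keratins (log axes, normalised counts per kb), with the line of equal levels. Krt7, Krt8, Krt18 and Krt19 lie above the line between 9.10 and 26.2 per kb in control, while Krt23 and Krt80 lie near it and Krt13 and Krt4 stand at the top.

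The increases were small beside the keratin content of the tissue. Krt13 and Krt4 are the main pair above the basal cells of stratified tongue epithelium. They made up 76.2% of the per-length signal of all 26 epithelial keratins in control and 81.9% in H3K36M. Krt7, Krt8, Krt18 and Krt19 together made up 0.00554% in control and 0.0523% in H3K36M. Per kb their sum went from 70.7 to 533 normalised counts, while all 7 members summed to 5501 in control and 4924 in H3K36M. Krt23 and Krt80 held 98.7% of the members' signal in control and 89.1% in H3K36M. These shares were computed from group levels and have no error.

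Type I and type II members were also summed per kb, since filaments need both. The ratio of type I to type II was 6.03 in control and 3.89 in H3K36M, a value set by Krt23 and Krt80. Without division by length it was 1.49 and 1.01, and with the principal transcript as the length, chosen after the data were seen, 2.92 and 1.998. Leaving out Krt23 and Krt80 gave 2.16 in control and 2.19 in H3K36M per kb, but 0.71 and 0.81 without division by length, so which type was in excess depended on the length. Within the pair, Krt18 was 2.88 times Krt8 in control and 1.53 times in H3K36M. The interval of the difference between Krt8 and Krt18 given above, which includes 0, applies to this last pair of ratios, and the type I to type II ratios have no error.

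The spread between libraries differed among members. The SE of each fold change implies a coefficient of variation (CV) between libraries, computed here for equal depths. The CV was 0.468 for Krt19, 0.597 for Krt7, 0.825 for Krt18 and 0.873 for Krt8, against a median of 0.536 over the 322 higher genes. Among genes within a factor of 2 of the same mean, Krt19 lay at the 55.4th percentile and Krt7, Krt8 and Krt18 between the 70.9th and 73.3rd. Krt23 had a CV of 0.321, at the 26.2nd percentile. Krt80 had a CV of 0.931, at the 96.6th percentile of 709 genes, whose median was 0.400. Whether a few libraries carry an increase cannot be told from group levels.

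**Figure D4:**
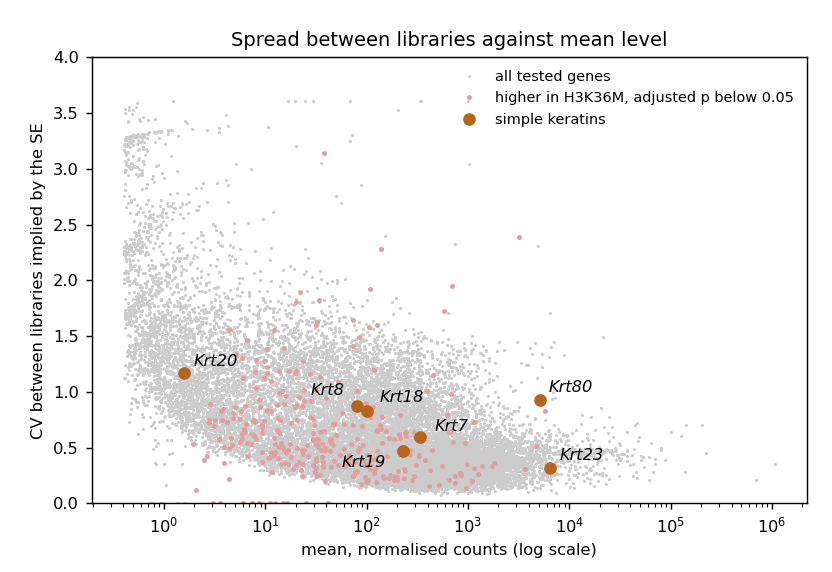
CV between libraries implied by the SE against the mean in normalised counts (log axis) for all tested genes (grey), genes higher in H3K36M (pink) and simple keratins (brown). Krt80 stands high for its mean at 0.931, and Krt19 is the lowest of the 4 called members at 0.468. Genes whose SE leaves no spread beyond counting are drawn at 0.

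Each annotated neighbour of a called member had a lower fold change than that member, with an interval of the difference that left out 0, apart from the Krt8 and Krt18 pair, 23.7 kb apart. Krt87, a hard keratin 0.725 kb from Krt7, had a log2 fold change of −1.36 (SE 0.89) in the authors' deposited table, and Krt7 exceeded it by 4.07 (interval 1.38 to 6.76, for any correlation). Krt15, a basal keratin 4.88 kb from Krt19, stood at 0.24 (SE 0.20) in the authors' deposited table, below Krt19 by 3.24 (2.08 to 4.395). Krt78 on the other side of Krt8 fell by 0.62 (SE 0.18) in the authors' deposited table, 3.75 below Krt8 (2.002 to 5.49). Eif4b, a translation initiation factor gene beyond Krt18, stood at −0.03 (SE 0.16) in the authors' deposited table, 2.25 below Krt18 (0.63 to 3.86). Genes on the opposite strand overlap Krt7 (Gm671), Krt8 (Gm36026) and Krt80 (Gm35853, Mir1941). The library kit keeps strand, but how reads were counted by strand is not stated in the labels. The pseudogene Krt8-ps matches Krt8 at 98.6% over 941 bases, so some reads of Krt8 can be shared with it.

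Of genes that link keratin filaments to junctions and other cytoskeleton, 0 of 14 passed in the authors' deposited table (DESeq2 by the authors), with 1 at an unadjusted p below 0.05. Dsp, the desmosomal anchor of keratin filaments, stood at −0.42 (SE 0.17) and Pkp1, a desmosomal plaque protein, at −0.11 (SE 0.45) in the authors' deposited table. Modifiers and binding partners of simple keratins likewise had 0 calls of 16 in the authors' deposited table (their DESeq2 fit), with 0 at p below 0.05 before adjustment. Among them Ywhaz, a 14-3-3 protein of the family that binds phosphorylated Krt18, stood at −0.18 (SE 0.18) and the small heat shock gene Hspb1 at −0.09 (SE 0.19) in the authors' deposited table.

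Among 28 tested luminal and ductal genes other than keratins, 5 rose and none fell by the authors' deposited table (1.85% and 1.59% of all genes), with a median log2 fold change of 0.22. Those with the smallest adjusted p were Pigr, the epithelial IgA receptor (7.01, SE 1.40), the membrane mucin Muc1 (3.81, SE 0.79), the lipocalin Lcn2 (3.34, SE 0.82) and the adhesion molecule Epcam (0.72, SE 0.20) in the authors' deposited table. Most of that list, such as Cdh1 (0.13, SE 0.26), was not called. The claudin genes Cldn3 and Cldn7 were marked as outliers and had no p. Their fitted levels in control and H3K36M were 1.04 and 16.1 for Cldn3 and 1.36 and 27.6 for Cldn7 in the authors' deposited table. The 26 transcription factor genes tested had a median log2 fold change of 0.27, with 22 above 0, as computed from the authors' deposited table. Over all tested genes the median was 0.07 and 56.6% were above 0.

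Some marker genes of other cell types moved with the members, and their part in the increases was not tested. Of 10 tested salivary acinar markers, 4 rose and none fell in the authors' deposited table (1.85% and 1.59% of all genes). An unadjusted p below 0.05 by the authors' DESeq2 was found for 8 of the 10, all higher but Amy1. The 3 marked as outliers had no p. Their fitted levels in control and H3K36M were 0.425 and 109.6 for Lpo, 3.59 and 43.2 for Bhlha15, and 12.9 and 24.0 for Bpifa2. The summed level of the whole list was 558 normalised counts in control and 7754 in H3K36M, and each sum was mostly 1 gene. Amylase Amy1 held 515 in control and 91.4 in H3K36M (log2 fold change −2.49, SE 1.02, adjusted p = 0.245), and the trefoil gene Tff2 held 5.80 and 6933 in the authors' deposited table. The calls were Smgc, which had no counts in control and was at least 83.2-fold higher in H3K36M (taking 3 counts summed over all controls as the floor), Muc19 (8.12, SE 1.503), Tff2 (10.22, SE 1.93) and Aqp5 (6.21, SE 1.30) in the authors' deposited table. Prol1 was near 0 there, at 0.084 and 0.119 normalised counts in control and H3K36M of the authors' deposited table. Smgc (91838265 to 91861438) and Muc19 (91838326 to 91934555) overlap on the plus strand of chromosome 15. Reads can be shared between them, so their calls are not separate counts. Neutrophil markers had 2 higher and none lower of 7 (1.85% and 1.59% of all genes), S100a8 (3.85, SE 0.82) and S100a9 (4.08, SE 0.92), in the authors' deposited table. The summed level of the list was 141 in control and 1813 in H3K36M, mostly S100a8 (54.8 and 792) and S100a9 (53.9 and 911). All 7 tested neutrophil markers had a log2 fold change above 0, against 56.6% of all tested genes. An unadjusted p below 0.05 by the authors' DESeq2 was found for 6 of the 7. Ly6g, which defines neutrophils, had no adjusted p and stood at 0.127 and 0.175 normalised counts in the authors' deposited table.

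The sum over markers of skeletal muscle was 122837 normalised counts in control and 34693 in H3K36M, with 0 of 15 called in the authors' deposited table (DESeq2 by the authors) and 0 at an unadjusted p below 0.05. The authors' deposited table gave −2.10 (SE 1.20) for the myosin gene Myh4 and −1.98 (SE 1.07) for the troponin gene Tnnt3. Stratified basal markers had 1 lower, Krt14, and 0 higher of 7 (1.59% and 1.85% of all genes), with sums of 129647 and 102076 in the authors' deposited table.

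Cell types known to hold simple keratins were checked by markers as well. The counts below stand beside 1.85% higher and 1.59% lower over all tested genes. Taste bud markers had Krt8 itself as the only call of 13, and the summed level of the list was 1249 in control and 1730 in H3K36M in the authors' deposited table. Itpr3, which was not called, held 895 and 1116 of these sums. Of 11 tested Merkel cell markers, Krt20 among them, 2 rose and 1 fell by the authors' deposited table. The list summed to 1179 in control and 986 in H3K36M, mostly Sox2 (444 and 561) and Isl1 (610 and 362), neither of them called. The hormone genes Chga (3.40, SE 0.86) and Cck (3.44, SE 0.89) were higher, and Piezo2, the touch channel, fell by 2.28 (SE 0.28) in the authors' deposited table. Atoh1, the factor that defines Merkel cells, stood at 0.085 and 0.065 normalised counts and Pou4f3 had no reads in the authors' deposited table. Of 5 tested columnar markers 1 was higher, the microvillus protein Vil1 (2.84, SE 0.90), and 4 more were outliers in the authors' deposited table. That list summed to 106.0 normalised counts in control and 13486 in H3K36M, with the galectin gene Lgals4 (71.2) the main part in control and the mucin gene Muc5b (18.6 in control and 12879.6 in H3K36M) nearly all of it in H3K36M of the authors' deposited table. Cdx1 and Fabp1 had no reads in the authors' deposited table. The mesothelial list held Krt8, Krt18 and Krt19 themselves, so its sums of 118 and 979 are mostly their levels. Beside them Msln was higher (3.21, SE 0.73) and Upk3b was not called (2.57, SE 1.27, adjusted p = 0.471) in the authors' deposited table. The defining factor Wt1 stood at 0.073 and 0.145 normalised counts in the authors' deposited table.

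The genes most like the called members were sought among 10746 tested genes with a mean of at least 50 and no clone or predicted name, by the distance of log2(level + 1) over the 2 group levels. Nearest to Krt8 were Lcn2, the villin-like gene Vill and Msln, which went from 14.4 to 20.7 normalised counts in control to 157 to 192 in H3K36M in the authors' deposited table. Nearest to Krt18 were Tmem116, Arhgef16 and Galnt6, an enzyme of mucin-type glycosylation. Krt7 was closest to the channel-like gene Tmc4, the atrial myosin light chain gene Myl7 and the immediate early gene Arc. Krt19 was closest to the carboxylesterase gene Ces1f, the complement gene C4b and the chitinase-like gene Chil1. Of these 12 genes, 8 passed the threshold and 4 did not (Arhgef16, Galnt6, Arc and C4b) in the authors' deposited table. Distances ran from 0.143 to 0.675 over only 2 group levels, so likeness here is of level and not of pattern between samples.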

How the data were processed

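PolyA RNA of 13 tongue epithelia samples was sequenced as directional single-end libraries, per the labels' protocols. STAR, DESeq2 and GRCm38 (mm10) are named in the submitters' processing notes. The sources used here name no version, annotation or counter. Per the file headers, the authors deposited a mean and 2 group levels as normalised counts (a signal scale), a log2 fold change with its standard error, a Wald statistic (a score), p-values and adjusted p-values over all genes. The mean was checked to be the average of both group levels weighted by 7 and 6 samples in the 19909 genes with reads (relative tolerance 1e-06). Libraries averaged 1.57698e+07 normalised counts, and depth per library is not in these tables. The 2 deposited tables of GO terms were not used here.

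No count test could be fitted to group levels, so the call is the authors' adjusted p below 0.05. The members and gene lists (14) were chosen with earlier results of these data known. 95% intervals use 1.96 SE. Intervals of levels and the CV between libraries follow from the SE of a negative binomial fit with equal depths, checked on simulated data. The planned p-values over pairs of members were not used, as members were chosen with results known. Named genes were the members, up to 4 called genes per list with the smallest adjusted p (2 of highest mean where none passed), Krt4, Krt5, Krt13 and Krt14, the annotated neighbours on either side that are in the table, and 3 genes nearest to each called member. Cdh1, Amy1, Lgals4, Upk3b, Muc5b and the markers at or near 0 were named after their values were seen. So were Cldn3, Cldn7, Bhlha15, Bpifa2, Lpo, Sox2, Isl1 and Itpr3. Lengths come from GENCODE M21. Similar transcripts were sought with blastn 2.17.0 (at least 75 bases at 97% identity). Python 3.11.15 was used. Alternatives varied the threshold, filter, reference distribution, centring, pseudocount and length. The result of 1 listed gene is not reported here.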

Additional observations from a re-analysis of the deposited data

How the results depend on the processing

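No paired analysis was possible because the labels used here name no pairing between the groups and the tables hold group values. Without values of single samples no replicate could be left out. The fold changes of all 7 members kept their direction after centring on the median of all tested genes and with pseudocounts of 1 and 10. Neither step could have reversed a direction here. The same pseudocount in both groups keeps the sign, and the median of 0.07 was below the smallest log2 fold change in size, 0.14 for Krt80. The count of called members was 3 at an adjusted p below 0.01 (Krt18 lost) and 4 at 0.1, with other filters on the mean, after centring and with a log2 fold change beyond 1. It fell to 2 with the t distribution with 11 degrees of freedom, where 105 genes in all were higher against 322. With the p adjusted over genes with a mean of at least 50, 129 were higher, and fewer genes (11075) were tested. Independent errors in place of any correlation gave 9 pairs of members apart against 7. The type I to type II ratio moved with length: without division by length it was 1.49 in control and 1.01 in H3K36M, and with the principal transcript, chosen after the data were seen, 2.92 and 1.998. Without Krt80 and Krt23 it was 2.16 in control. Lengths are those of a GENCODE release and may differ from the annotation the authors counted with. Group levels limit what depth and single libraries can tell about Krt20 and Krt80.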
